A study of Mus musculus with 9 samples.

Results

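The Akr1c aldo-keto reductases are a cluster of neighbouring genes on mouse chromosome 13, and 8 of them (Akr1c18, Akr1c6, Akr1c12, Akr1c13, Akr1c14, Akr1c19, Akr1c20 and Akr1c21) were examined in liver tumours driven by active Notch1. Members were taken by gene symbol in the platform annotation, counting only probe sets that name 1 gene. All 8 genes were measured, on 1 probe set each, among 19938 genes in all, and no probe set of several genes held a member. The family was chosen from measured values, since the HCC minus control difference of Akr1c18 was the largest of all genes. The contrast of HCC with control liver is therefore given for the 8 genes as a description, without a test.

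Each sample of total RNA was hybridised to 1 Affymetrix Mouse Gene 1.0 ST array. The 5 hepatocellular carcinomas (HCC) came from bitransgenic AFP-Cre/Rosa26-lsl-NICD mice. In these mice Cre recombinase under the alpha-fetoprotein promoter removes a stop cassette and releases the intracellular domain of Notch1 (NICD), so the active Notch is limited to cells that have used that promoter. The 4 control livers came from monotransgenic Rosa26-lsl-NICD mice, which carry the same silent allele without Cre. All mice were 6 to 12 months old and on a hybrid 129 x C57BL/6 background. Whether an array stands for 1 animal is not given in the labels, and neither sex nor litter is. Values below are log2 of the deposited RMA intensity, and an SD or range is over 5 HCC or 4 control arrays.

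Aldo-keto reductases use NADPH or NADH to reduce ketones and aldehydes, or run the reverse oxidation. Those of the AKR1C subfamily act on steroids, prostaglandins, bile acid precursors and foreign carbonyl compounds, and by doing so they switch steroid hormones between active and inactive forms. Hepatocytes are a main site of several of them in the mouse. The genes arose by repeated duplication, so their transcripts resemble one another and a probe set can take up signal from a paralog. In bulk tissue, fewer cells of a type and less RNA per cell cannot be told apart.

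Members were compared by their promoters, which do not show how alike the transcripts read by the probes are. Promoters are printed for the gene with the large rise and for the 3 members most alike in promoter sequence. RefSeq's GRCm38.p6 promoter table, with 250 bases before and 50 bases from each annotated start, held 7 of the 8 members and none for Akr1c20. The strand runs 5′ to 3′ along each gene. Capitals mark matches to 6 short motifs searched on both strands, which are TGGGAA (the core bound by RBPJ, the DNA-binding partner of NICD), TGACNNNGC (antioxidant response core), TTCNNNGAA (STAT site), AGGTCA (nuclear receptor half-site), TGTTTAC (forkhead core) and CATTAG. The last of these was picked after the sequences were read. No 2 matches overlapped in the sequences shown.
Akr1c18, chr13:4150597-4150896, minus strand: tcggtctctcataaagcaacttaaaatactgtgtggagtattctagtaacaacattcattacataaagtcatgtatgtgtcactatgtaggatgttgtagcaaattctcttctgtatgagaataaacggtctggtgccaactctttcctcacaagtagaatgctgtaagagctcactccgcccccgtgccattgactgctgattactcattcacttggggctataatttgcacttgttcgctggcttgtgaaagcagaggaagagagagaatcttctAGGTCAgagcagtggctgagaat
Akr1c12, chr13:4279350-4279649, minus strand: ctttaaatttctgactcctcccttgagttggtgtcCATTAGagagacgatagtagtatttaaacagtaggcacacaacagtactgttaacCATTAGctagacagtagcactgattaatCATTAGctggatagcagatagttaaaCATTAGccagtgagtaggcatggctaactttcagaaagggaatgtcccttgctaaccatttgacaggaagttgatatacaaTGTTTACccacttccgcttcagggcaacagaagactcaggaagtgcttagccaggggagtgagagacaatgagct
Akr1c13, chr13:4190937-4191236, plus strand: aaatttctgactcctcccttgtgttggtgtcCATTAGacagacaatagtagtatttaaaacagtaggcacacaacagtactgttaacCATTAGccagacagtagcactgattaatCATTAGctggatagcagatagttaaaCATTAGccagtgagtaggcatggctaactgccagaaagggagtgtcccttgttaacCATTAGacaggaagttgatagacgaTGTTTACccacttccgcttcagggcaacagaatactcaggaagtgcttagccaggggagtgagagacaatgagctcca
Akr1c19, chr13:4233490-4233789, plus strand: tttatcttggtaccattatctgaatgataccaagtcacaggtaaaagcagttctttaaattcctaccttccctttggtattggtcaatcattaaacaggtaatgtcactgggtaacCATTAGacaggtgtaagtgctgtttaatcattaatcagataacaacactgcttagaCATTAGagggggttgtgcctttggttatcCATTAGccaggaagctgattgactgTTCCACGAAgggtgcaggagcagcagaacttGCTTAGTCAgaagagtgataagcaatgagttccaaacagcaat

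The Akr1c12 and Akr1c13 windows were near copies, with 284 identical bases in 304 aligned columns (93.4%). Akr1c19 shared 58.7% with Akr1c12 and 59.8% with Akr1c13, and the other 18 pairs among the 7 members shared 48.9% to 55.6%. Akr1c18 shared 51.9% with Akr1c12 and 55.6% with Akr1c14, its neighbour. Identity between unrelated windows was not computed, so 48.9% to 55.6% is not read as resemblance. CATTAG stood 4 times in the Akr1c12 window, 5 times in Akr1c13, 3 times in Akr1c19, once each in Akr1c6 and Akr1c21, and in neither Akr1c18 nor Akr1c14. Of all 32851 windows in the table, 7.36% held it at least once. TGGGAA was in none of the 7 windows, against 25.6% of all windows. The Akr1c18 window held 1 of the 6 motifs, AGGTCA, whose match begins at base 28 of the transcribed part and occurs in 16.3% of all windows. TGTTTAC, in 3.65% of all windows, was in those of Akr1c12, Akr1c13 and Akr1c21, and TGACNNNGC (12.4%) and TTCNNNGAA (8.3%) were in that of Akr1c19. A match of letters is a description of the sequence and does not show binding.

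Akr1c18 is the mouse 20α-hydroxysteroid dehydrogenase, which inactivates progesterone and is best known from the corpus luteum. Its log2 intensity was 10.59, 9.33, 12.46, 11.46 and 10.80 on HCC arrays 1 to 5, against 5.17, 5.44, 5.64 and 4.77 on control arrays 1 to 4. Every tumour lay above every control, and the lowest tumour was 3.70 log2 units above the highest control. The group means were 10.93 ± 1.15 in HCC and 5.25 ± 0.37 in control liver (SD, n = 5 and 4), a log2 difference of 5.67. Set against the control mean, the tumours were 40.4-, 16.9-, 148-, 73.7- and 46.8-fold higher in array order, so the size of the rise spread over an 8.72-fold range among tumours. The probe set was as bright as or brighter than 93.3% of all probe sets on average over the HCC arrays, against 23.1% over the control arrays. Because probe affinities differ, such a rank describes the signal on the array and is no transcript number. No detection call was used, so it is not known how much of the dim control signal lay above background, and the folds are ratios of measured intensity.

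**Figure D1:**
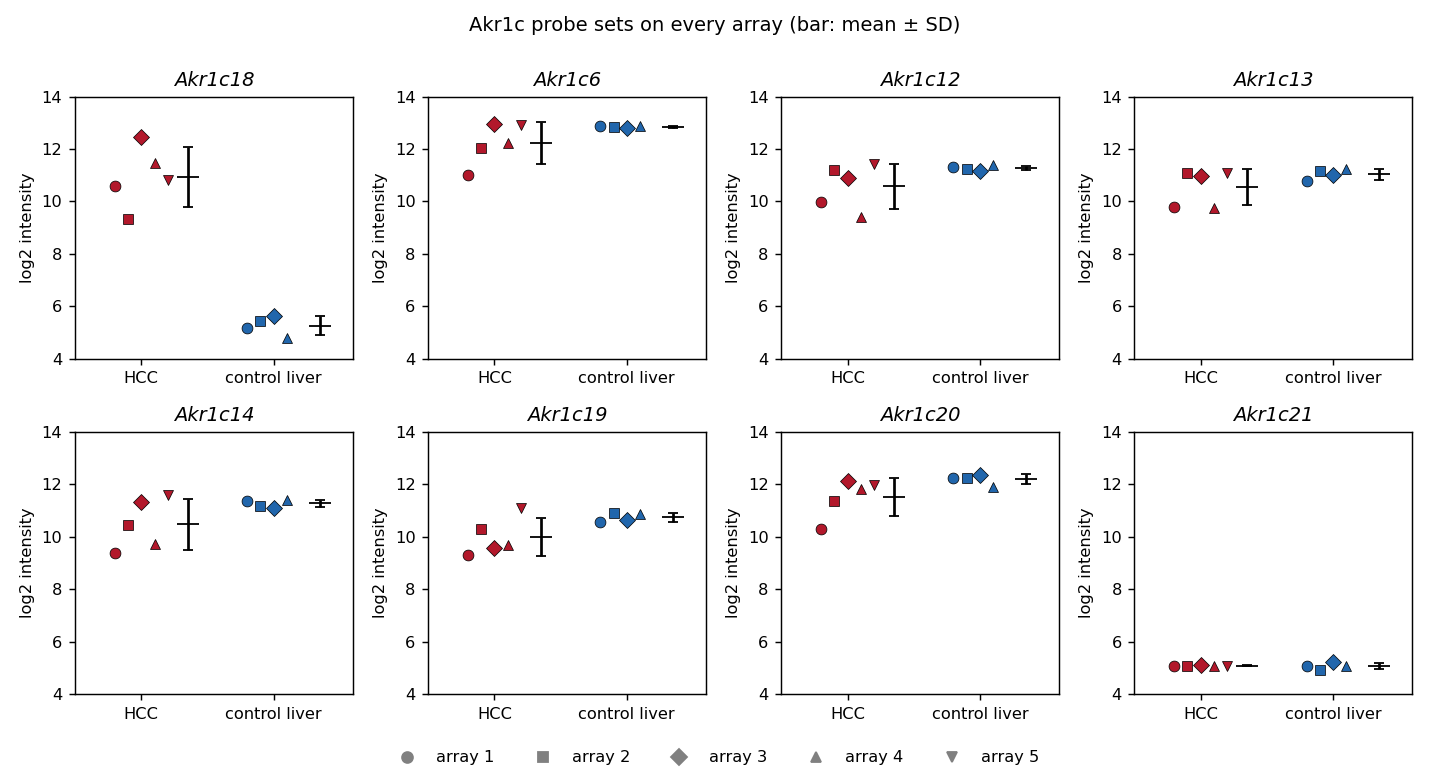
Log2 intensity of the 8 Akr1c probe sets on each HCC array (left, red) and each control liver array (right, blue), with marker shape giving the array number and the bar beside each group its mean ± SD. Akr1c18 lies between 9.33 and 12.46 in HCC and between 4.77 and 5.64 in control liver, while 6 members scatter downwards in HCC and Akr1c21 stays near 5.07.

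The other 7 members did not share the rise. Their median log2 difference was -0.68, against -0.03 over all 19938 genes. For 6 of them (Akr1c6, Akr1c14, Akr1c20, Akr1c12, Akr1c13 and Akr1c19) the HCC mean was lower than the control mean, by -0.79 to -0.49 on the log2 scale. The groups of these 6 overlapped. Among the 8 members, then, the groups were apart for 1 that was higher (Akr1c18) and for none that was lower. Of all genes, 5.63% had every tumour above every control and 3.86% every tumour below, and nothing is read from the members' count, since the family was chosen from this contrast.

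The hydroxysteroid dehydrogenases of hepatocytes come first. Akr1c6, a 17β-hydroxysteroid dehydrogenase that interconverts weak and potent sex steroids, was at 11.01, 12.02, 12.97, 12.21 and 12.93 on HCC arrays 1 to 5, against 12.87, 12.84, 12.79 and 12.87 on control arrays 1 to 4. HCC arrays 1, 2 and 4 fell below the narrow control range and arrays 3 and 5 just above it, giving 12.23 ± 0.80 in HCC and 12.84 ± 0.04 in control liver (1.53-fold lower in HCC). Akr1c14, a 3α-hydroxysteroid dehydrogenase that reduces dihydrotestosterone and related steroids, was at 9.37, 10.43, 11.34, 9.71 and 11.59 in HCC, against 11.37, 11.19, 11.10 and 11.42 in control liver. Its HCC arrays 1, 2 and 4 were again below every control, array 3 was within their range and array 5 above it. The difference of means was -0.79, the largest among the 6. Akr1c20 was at 10.30, 11.35, 12.15, 11.82 and 11.96 in HCC, against 12.25, 12.23, 12.37 and 11.91 in control liver. Here too arrays 1, 2 and 4 were below every control, and arrays 3 and 5 were within the control range (mean difference -0.68).

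Akr1c12, Akr1c13 and Akr1c19 are NAD-dependent members of the family that act on alcohols and carbonyl compounds, and the first of them was found as an interleukin-3-regulated transcript in mouse myeloid cells. Akr1c12 was at 9.97, 11.20, 10.90, 9.41 and 11.41 on HCC arrays 1 to 5, against 11.30, 11.24, 11.17 and 11.38 on the controls, a difference of means of -0.69. Akr1c13 was at 9.80, 11.08, 10.98, 9.75 and 11.10 in HCC, against 10.77, 11.15, 10.99 and 11.24 in control liver, a difference of -0.49. In both genes HCC arrays 1 and 4 were the lowest, Akr1c12 was also below every control on array 3, and array 2 stayed within the control range, unlike in Akr1c6, Akr1c14 and Akr1c20. Akr1c19 was at 9.30, 10.28, 9.59, 9.68 and 11.11 in HCC, against 10.57, 10.90, 10.62 and 10.86 in control liver (difference -0.74). For Akr1c19 arrays 1 to 4 were all below every control and array 5 was above them.

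Akr1c21, the 17α-hydroxysteroid dehydrogenase known mainly from mouse kidney, showed no such movement. It was at 5.07 to 5.11 in HCC, against 4.92 to 5.21 in control liver, with means of 5.08 ± 0.02 and 5.07 ± 0.12. On 6 of the 9 arrays its value was the same to the third decimal (5.068). A probe set this dim and this constant carries little information on change.

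Read by tumour, the 6 lower members moved together on some arrays and apart on others. On HCC arrays 1 and 4 all 6 were below every control, with a median of -1.64 and -1.17 relative to the control means. On HCC array 2 it was 4 of 6 (median -0.64), on array 3 it was 2 of 6 (Akr1c12 and Akr1c19; median -0.05), and on array 5 none, with 4 of 6 above every control there (median 0.12). Akr1c18 did not follow this order: it was highest on HCC array 3, where most of the others were at control levels, and it was 40.4-fold and 73.7-fold above the control mean on arrays 1 and 4, where all of the 6 were low. The SD of the 6 was 0.70 to 0.98 in HCC and 0.04 to 0.21 in control liver.

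The distance between profiles was taken as the root mean square difference over the 9 arrays after subtracting each gene's control mean. Akr1c6 and Akr1c20, which lie side by side, were nearest of the 28 member pairs at 0.199 log2 units. Akr1c12 and Akr1c13, the near copies by promoter, followed at 0.253, and the largest distance among the 15 pairs of the 6 was 0.635 (Akr1c12 and Akr1c20). Akr1c18 was 4.29 to 4.90 from every other member. That distance contains its HCC minus control difference, from which the family was chosen. It does not describe the order among tumours. Shared signal was not tested for any member, Akr1c18 included, since no probe sequences were used, so values of different members may not be independent.

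**Figure D2:**
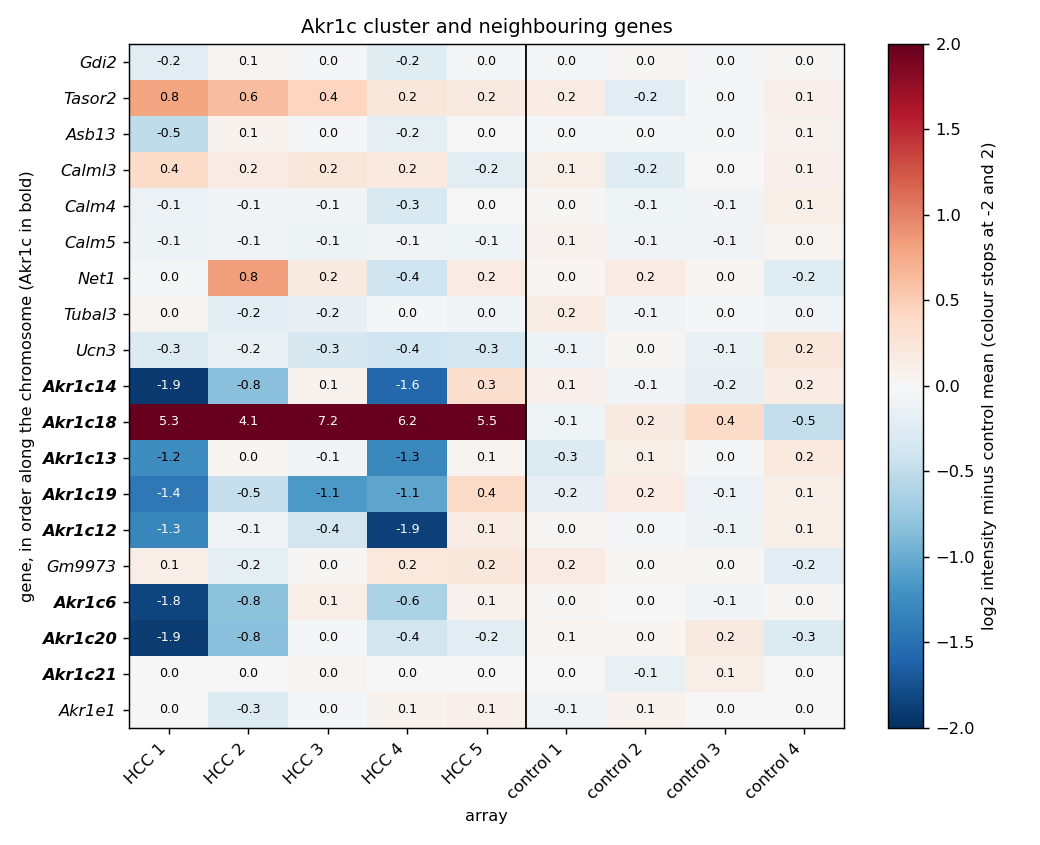
Log2 intensity minus the control mean for the 8 Akr1c genes (bold) and 11 measured neighbours in order along the chromosome (rows), on 5 HCC arrays and 4 control arrays (columns), with colour limited to -2 to 2 and values printed. Akr1c18 stands out at 4.1 to 7.2 on all HCC arrays between members that are lower on HCC arrays 1 and 4, and the flanking genes differ by less.

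Genes beside the cluster did not show the pattern of Akr1c18. Of 11 measured genes within 500 kb of the members by the RefSeq order of GRCm38.p6, none passed limma's moderated test in either direction after Benjamini-Hochberg adjustment over all genes (smallest adjusted p = 0.134). Limma called 0.858% of all genes higher and 0.16% lower in HCC. Akr1e1, a more distant aldo-keto reductase next to Akr1c21, averaged 10.96 ± 0.15 in HCC and 10.99 ± 0.06 in control liver (SD, n = 5 and 4), with a 95% interval of the difference from -0.23 to 0.16. The predicted gene Gm9973, between Akr1c12 and Akr1c6, averaged 4.36 ± 0.16 in HCC and 4.28 ± 0.16 in control liver. Differences of the other neighbours (Gdi2, Tasor2, Asb13, Calml3, Calm4, Calm5, Net1, Tubal3 and Ucn3) ran from -0.30 for Ucn3 to 0.45 for Tasor2. On all 5 HCC arrays Tasor2 was above and Ucn3 below every control. Of all genes, 5.63% had every tumour above every control and 3.86% every tumour below, and nothing is read from either gene.

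By the same distance, the genes outside the family nearest to Akr1c18 over the 9 arrays were Gm609 (1.54), Bicc1 (1.61), Tmem45a (1.73), Lpl (1.87) and Scd2 (2.02). This distance again contains the HCC minus control difference, from which the family was chosen. It therefore puts genes with a large rise first, and nearness is not read as likeness among tumours. Bicc1 is an RNA-binding protein, Lpl the lipoprotein lipase and Scd2 a stearoyl-CoA desaturase. None was close: their HCC minus control differences were 3.20 to 3.95, against 5.67 for Akr1c18. Among tumours, Gm609, Bicc1 and Lpl were lowest on HCC array 5, and Akr1c18 on array 2 (9.33, with 10.59 on array 1 the next). Tmem45a and Scd2 were low on arrays 2 and 5 alike, at 9.186 and 9.193 for Tmem45a and 8.838 and 8.932 for Scd2. Gm609, Bicc1, Tmem45a and Scd2 were highest on HCC array 1 (9.52, 11.73, 11.08 and 10.49), whereas Akr1c18 and Lpl were highest on array 3 (12.46 and 10.92).

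**Figure D3:**
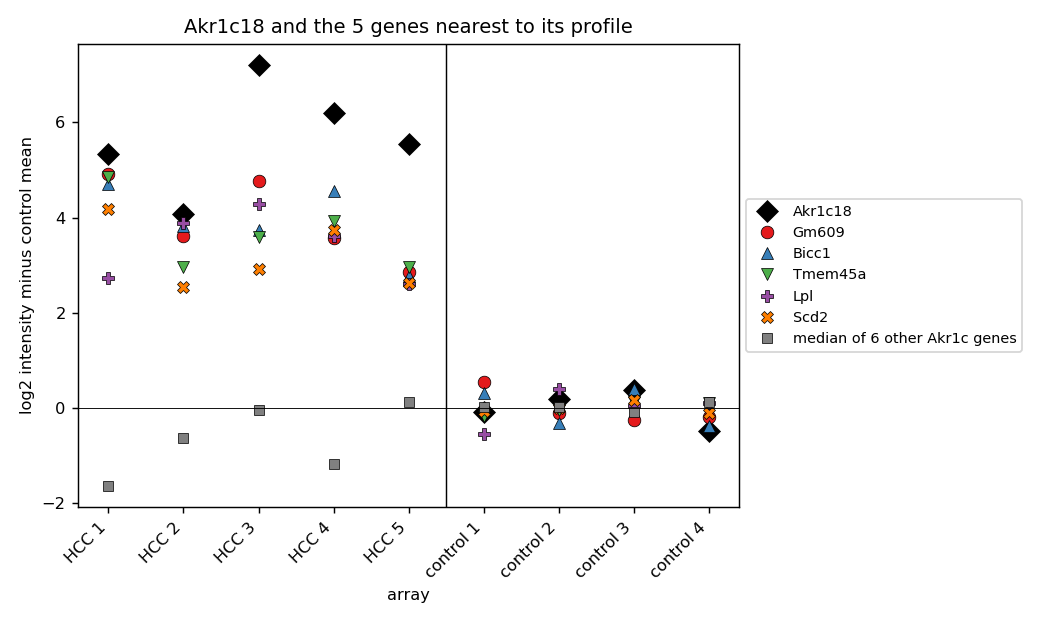
Log2 intensity minus the control mean on each array for Akr1c18 (black diamonds), the 5 genes with the nearest profiles and the median of 6 other Akr1c genes (grey squares). Akr1c18 is above all of the others on each HCC array, and the grey squares lie between -1.64 and 0.12 there.

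Related genes were compared as 6 lists of 92 genes, of which 77 were measured. The lists held other reductases and dehydrogenases, genes of steroid and prostaglandin metabolism, and receptors with Stat5. Not all of them share the chemistry of Akr1c. In limma none of the 77 was higher or lower in HCC at an adjusted p under 0.05 over all genes. At an unadjusted p under 0.05, 2 were higher and 23 lower, against 2095 and 1964 of all 19938 genes. The difference was negative in 58 of the 77, with a median of -0.23. All 5 tumours lay above every control for 1 of the 77 (Rdh9) and below for 7, against 5.63% and 3.86% of all genes (Hsd11b1, Hsd11b2, Hsd17b7, Rdh16, Hpgd, Slco2a1 and Dcxr). Hsd11b1 and Hsd11b2 interconvert active and inactive glucocorticoids, Hpgd inactivates prostaglandins and Slco2a1 carries them into cells. Log2 differences of these 7 ran from -1.74 for Rdh16 to -0.17 for Hsd11b2, with limma adjusted p from 0.0836 for Dcxr to 0.272 for Hsd11b2. Hpgd was at 11.29 ± 0.41 in HCC and 12.07 ± 0.13 in control liver, and the difference of Slco2a1 was -1.69.

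Among 7 measured aldo-keto reductases outside the Akr1c group none passed, 6 differences were negative and the median was -0.25. Akr1d1, the 5β-reductase that acts on bile acid precursors and steroids ahead of the 3α-hydroxysteroid dehydrogenases, was at 9.17, 11.27, 9.82, 9.66 and 11.16 in HCC, against 11.55, 11.42, 11.65 and 11.16 in control liver. HCC arrays 1, 3 and 4 were below every control (log2 difference -1.23, SE 0.43, adjusted p = 0.165 in limma). Of 22 short-chain hydroxysteroid dehydrogenases none passed and 16 were negative (median -0.38). Rdh9, which oxidises retinol and hydroxysteroids, was nearest to the threshold and in the direction of Akr1c18, at 12.25 ± 0.47 in HCC and 11.04 ± 0.36 in control liver (SD, n = 5 and 4; log2 difference 1.21, SE 0.25, limma adjusted p = 0.0591). It was higher on 5 of 5 HCC arrays than on any control. Of 14 genes of steroid synthesis, 5α-reduction and conjugation none passed and 11 were negative (median -0.28). The smallest adjusted p there, 0.144 in limma, was shared by Cyp21a1 and Ugt2b1. Cyp21a1, the adrenal steroid 21-hydroxylase, was at 4.98 ± 0.17 in HCC and 5.35 ± 0.20 in control liver. Ugt2b1, a glucuronosyltransferase that conjugates steroids, had the largest difference of the 77 genes, -3.01 (SE 0.97). It was at 5.87, 8.78, 7.20, 6.80 and 11.44 in HCC, against 10.78, 11.07, 10.85 and 11.41 in control liver. All tumours but HCC array 5 were below every control.

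Enzymes of the AKR1C subfamily also act on prostaglandins, and a list of prostaglandin genes was compared. None of the 14 measured passed, with 7 positive and 7 negative and a median of 0.0009. Ptgr1, which inactivates prostaglandins and leukotriene B4, was at 9.95 ± 0.60 in HCC and 8.74 ± 0.34 in control liver. It was above every control on 4 of 5 HCC arrays (log2 difference 1.21, SE 0.30, limma adjusted p = 0.0867). Of 11 carbonyl reductases none passed and 10 were negative (median -0.67). Dcxr, which reduces dicarbonyls and xylulose, was at 8.82 ± 0.69 in HCC and 10.10 ± 0.09 in control liver, below every control on 5 of 5 arrays (log2 difference -1.28, SE 0.31, limma adjusted p = 0.0836). Of 11 receptors and Stat5 genes none passed and 10 were negative (median -0.17). The estrogen receptor Esr1 was at 8.54 ± 0.36 in HCC and 9.43 ± 0.42 in control liver (limma adjusted p = 0.0961). The progesterone receptor Pgr had a difference of -0.05 (95% interval -0.35 to 0.26, limma adjusted p = 0.87), and the prostaglandin F2α receptor Ptgfr one of -0.01 (-0.18 to 0.17, adjusted p = 0.975).

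**Figure D4:**
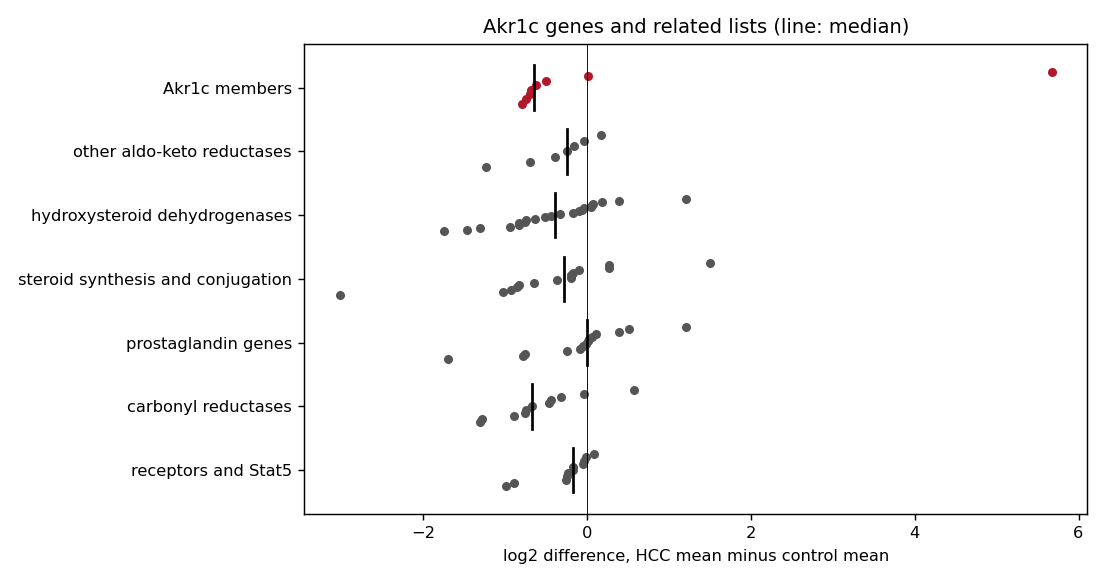
Log2 difference of means, HCC minus control, for the 8 Akr1c genes (red) and the measured genes of 6 related lists (grey), with the median of each as a vertical line. Akr1c18 lies at 5.67, apart from the other 7 Akr1c genes at -0.79 to 0.01, and the list medians lie between -0.67 and 0.0009.

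The tissue labels were set against marker genes. The mean over 8 hepatocyte markers was 12.31, 12.73, 12.51, 12.55 and 12.84 on HCC arrays 1 to 5 and 12.80 to 12.94 on the controls, and the order of the tumours was not that of the Akr1c genes throughout. HCC array 1, with the lowest Akr1c6, Akr1c14, Akr1c19 and Akr1c20, was lowest in hepatocyte markers. HCC array 4, with the lowest Akr1c12 and Akr1c13, was at 12.55 in these markers and array 3 at 12.51. Single markers did not share this order, and the small gap is not read. Cps1, Alb and Hnf4a were higher on array 4 (Cps1 12.471 against 11.794). Apob and Fgb were lower there (12.063 against 12.478 and 12.854 against 13.135). The median of the 6 members relative to control was -1.17 on array 4 and -0.05 on array 3. The mean over 5 bile duct markers was 8.71 on HCC array 1, 6.96 to 7.68 on the other tumours and 6.24 to 6.33 on the controls. Of the 5, 1 (Sox9) passed. All 5 differences were positive, and Sox9, Epcam and Cftr were above every control on 5 of 5 HCC arrays. No hepatocyte marker passed, but all 8 differences were negative, and Cps1 and Apoh were below every control on 5 of 5 HCC arrays. No leukocyte, endothelial or stellate cell marker passed. The endothelial Kdr was below every control on 5 of 5, and no other marker of these 3 lists had its groups apart. Of all genes, limma called 0.858% higher and 0.16% lower, and 5.63% had every tumour above and 3.86% below every control. Over 6 markers of steroid-producing cells, a site of Akr1c18 outside the liver, the mean was 5.42 to 6.31 in HCC and 5.65 to 6.46 in control liver. Most of the spread of that mean came from Cyp17a1, so the mean does not stand for the list. Of the 6, the difference was positive for 2 and negative for 4, and none passed. The negative ones were Cyp21a1, given above, and 3 others, with Cyp11a1 at 4.72 ± 0.15 in HCC and 4.91 ± 0.07 in control liver, Star at 5.98 ± 0.09 and 6.18 ± 0.29, and Nr5a1 at 6.46 ± 0.06 and 6.58 ± 0.16. The positive ones were Hsd3b1, at 4.84 ± 0.06 in HCC and 4.77 ± 0.17 in control liver, and Cyp17a1, which varied widely in both groups. Cyp17a1 was at 10.54, 10.77, 5.49, 10.48 and 7.03 in HCC, against 10.13, 9.60, 8.48 and 6.14 in control liver, with 3 of 5 tumours above every control and HCC array 3, the highest in Akr1c18, below them. The part of cell composition in the lower values of the 6 members was not tested.

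Xist, which is expressed from an inactive X chromosome, was high on HCC arrays 1 and 2 (11.14 and 11.13) and low on HCC arrays 3, 4 and 5 (4.98, 5.10 and 4.92). It was high on control arrays 1 to 3 (10.68 to 11.76) and low on control array 4 (4.83). On HCC arrays 3, 4 and 5 the Y-linked Eif2s3y was 8.962, 6.045 and 8.965. There Uty was 8.262, 5.289 and 7.838, and Kdm5d 6.213, 6.049 and 8.403. On control array 4 these genes were at 9.102, 7.844 and 8.649, and on the arrays with high Xist at most 3.862, 5.024 and 5.748. HCC array 4 was therefore below arrays 3 and 5 in each of these genes. The 3 tumours with low Xist had the highest Akr1c18 (10.80 to 12.46, against 9.33 and 10.59), while the control with low Xist had the lowest (4.77). In a fit that included the Xist level, the difference of Akr1c18 was 5.43. The part of Xist, or of what it stands for, in these values was not tested further.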

How the data were processed

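RNA of 5 HCC and 4 control livers was hybridised to 1 array each. The authors deposited linear intensity values per probe set, and the submitters' processing notes name RMA (background correction, quantile normalisation between arrays, median polish); GenePattern and R were used per the labels of the series. Versions are not given in the sources used here. Array medians were 91.5 to 101 intensity units. The number of arrays limits the precision.

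Intensities were turned to log2 with no pseudocount or floor. Of 35512 probe sets, 21789 had 1 gene symbol, 1621 several and 12102 none in the platform annotation. For genes with several probe sets the brightest on average was kept, leaving 19938 genes. HCC was compared with control liver by limma 3.58.1 (lmFit and eBayes, R 4.3.3), two-sided, with Benjamini-Hochberg adjustment over all genes and a threshold of 0.05. With animals per array not labelled, p-values cover the spread between arrays, which may be technical. The fit was tested on simulated data. The replicate numbers in the labels carry no stated pairing. Same-numbered arrays had correlations of deviations from the group means of -0.004, 0.324, -0.029 and -0.083, so no block was used.

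Promoters were aligned end to end (Biopython 1.88; match 1, mismatch -1, gap opening -2, gap extension -0.5), and identity is over all aligned columns. Gene order came from the RefSeq table of GRCm38.p6. Tables and plots used Python 3.11.15, pandas 2.3.3, numpy 2.4.6 and matplotlib 3.10.9. The members, lists, alternatives and naming rule were chosen with earlier results of these data known. Named were all members, all measured neighbours within 500 kb, up to 4 genes per related list past the threshold or else the 1 with the smallest adjusted p, and the 5 genes nearest to Akr1c18. Rdh16, Hsd11b1, Hsd11b2, Hsd17b7, Hpgd, Slco2a1, Pgr, Ptgfr, Ugt2b1, and the marker genes with values were added with their values in view. Alternatives tried were a filter on dim genes, quantile normalisation, subtraction of array medians, trend and robust variance, array weights, other probe set rules, a replicate block, a term for Xist, and each array left out in turn.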

Additional observations from a re-analysis of the deposited data

Results flagged for a closer look

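Genes were screened within HCC and within control liver for an array far from the rest, in 60 groups of arrays. The 30 genes were the members, the neighbours, the 5 genes nearest to Akr1c18, and Akr1d1, Rdh9, Cyp21a1, Ptgr1, Dcxr and Esr1. The other related genes and markers were not screened. Chance alone would mark about 1 in 20 groups, and 3 were marked. Akr1c21 was 5.113 on HCC array 3 while the other HCC arrays all stood at 5.068, a gap that is large only because those 4 values were the same. Asb13 was 8.582 on control array 4 and 8.473 to 8.48 on the other controls. Tubal3 was 5.269 on control array 1 and 5.049 to 5.083 on the other controls. No array stood apart in this sense for the other 7 members.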

How the results depend on the processing

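All 18 alternatives left Akr1c18 between 5.29 (without HCC replicate 3) and 6.07 (without HCC replicate 2), and it was 5.71 with the replicate block and 5.91 with array weights. The 6 lower members kept a negative difference throughout, but single tumours set its size. Akr1c6 was -0.31, Akr1c14 -0.51 and Akr1c20 -0.37 without HCC replicate 1, and Akr1c12 was -0.40 and Akr1c13 -0.30 without HCC replicate 4 (Akr1c13 was -0.31 without HCC replicate 1). With array weights Akr1c6 was -0.38 and Akr1c14 -0.44. Akr1c21 changed sign in 2 of 17, at -0.009 with array medians subtracted and -0.04 without control replicate 2. The filter on dim genes left it out.

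Counts of calls moved far more. Against 171 higher and 32 lower genes, the filter on dim genes gave 285 and 93, array weights 503 and 246, and the replicate block, which leaves HCC array 5 without a partner, 259 and 220. Quantile normalisation gave 49 lower. Leaving out 1 array gave 10 to 631 higher (lowest without control replicate 3, highest without HCC replicate 5) and 0 to 556 lower (0 without control replicate 1, 2 or 3, with 1484 to 1615 lower at an unadjusted p under 0.05). Of the related genes, 0 passed in either direction. Rdh9 was the 1 higher gene with the filter, quantile normalisation or array weights. Leaving out 1 array gave 0 to 1 higher (Ptgr1 without HCC replicate 3, Rdh9 without HCC replicate 5) and 0 to 8 lower. The 8, without HCC replicate 5, were Dcxr, Dhrs1, Esr1, Hpgd, Hsd17b7, Hsd3b7, Slco2a1 and Ugt2b1. With array weights 2 were lower (Dcxr, Hsd17b7), with the replicate block 2 (Dcxr, Ugt2b1) and with the Xist covariate 1 (Dcxr). The cause of these changes was not tested.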
